A study of Homo sapiens with 6 samples.

Results

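TGF-beta, activin and bone morphogenetic protein (BMP) signalling was examined through 48 genes of the 60660 in the count tables. They were taken by gene symbol, each matched to its Ensembl ID, and comprise ligands, latent binding proteins, receptors, SMADs, antagonists and direct target genes. 12Z is an immortalised epithelial cell line from an endometriosis lesion. Control cells received a non-targeting control siRNA. Knockdown cells received 1 siRNA, LINC01133a, at 10 nM, against the long non-coding RNA LINC01133. Both groups were otherwise untreated and were lysed 72 h after transfection, with 3 polyA RNA-sequencing libraries in each group, which the study calls biological replicates. The comparison asks which parts of this pathway differed after LINC01133 knockdown, and whether a difference in the ligand TGFB2 came with one in the target genes. The antisense strand of the siRNA is shown because its seed, bases 2 to 8 in capitals, is read against the members' transcripts further on.

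LINC01133a antisense strand: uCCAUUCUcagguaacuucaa

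TGF-beta ligands are secreted in a latent form, held by their propeptide and by latent binding proteins in the matrix, and are released by integrins and proteases. The active dimer assembles type II and type I receptor kinases. TGF-beta and activin receptors phosphorylate SMAD2 and SMAD3, and BMP receptors phosphorylate SMAD1, SMAD5 and SMAD9. Both sets of SMADs join SMAD4 to switch genes on or off, among them inhibitors of the pathway itself. In the endometrium, members of this family act in shedding, repair and decidualization.

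Each library had 27742562 to 37551194 counts on genes. Normalized counts are counts scaled to a common effective library size. LINC01133 was at normalized counts of 813, 818 and 837 in control libraries 1, 2 and 3 and at 130, 131 and 138 in knockdown libraries 1, 2 and 3, a log2 fold change of -2.63 (SE 0.070, adjusted p = 3.5e-11). Adjusted p-values are those of edgeR (quasi-likelihood test), corrected by the Benjamini-Hochberg method for the 15155 genes tested. The label of an epithelial line was borne out in part. The keratins KRT8, KRT18 and KRT19 were abundant, with mean control counts of 104551, 57532 and 39956, while EPCAM (13.6 ± 4.33, SD, n = 3) and CLDN4 (14.8 ± 3.39) were near 0. The stromal genes COL3A1 and COL1A1 were as abundant, at 125479 and 87700. Of 8 epithelial markers 5 fell and none rose, and their summed count went from 200642-211646 in control to 128463-134359 in knockdown libraries. Of 8 stromal markers 1 rose and 4 fell, with sums of 226129-245997 in control and 227741-231322 in knockdown libraries. Among leukocyte markers CD3E was at 0 in every library and CD14 made up nearly all of the sum, which was 1618-1824 in control and 847-907 in knockdown libraries. The sum of 5 endothelial markers, mostly KDR, was 1590-1624 in control and 1112-1184 in knockdown libraries, as KDR fell (log2 fold change -0.68) and CDH5 rose (1.45), while PECAM1 and CLDN5 were near 0. In bulk RNA, fewer cells that express a gene and less of its RNA per cell cannot be told apart. The part of these marker shifts in the results below was not tested.

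A gene is said to have changed at an adjusted p under 0.05, and is called DE, the study's term, where its fold change was also over 1.5 in either direction. Of the 48 members, 45 had enough counts to be tested. BMP6, the receptor gene BMPR1B and the antagonist gene GREM1 had 1 to 13 counts in any library and were not tested. Of the 45, 5 rose and 20 fell, while 20 did not pass the test. Among all genes tested 23.3% rose and 25% fell, so that 48.3% changed, against 55.6% of the members. DE members numbered 9, or 20%, against 11.7% of all genes tested. These were TGFB2 and LTBP1, which rose, and TGFB3, INHBB, BMP2, TGFBR3, ENG, ACVR1 and ID1, which fell. For 30 members (66.7%) the values of the groups did not overlap, against 57.3% of all genes tested. The members' median log2 fold change was -0.16, against 0.0032 over all genes. Where counts were scaled by library size alone, the median of all genes moved to 0.066 and the split of the members to 10 higher and 18 lower. With a test against the fold change of 1.5 itself (glmTreat), 4 members passed, namely TGFB2, TGFBR3, ACVR1 and INHBB.

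**Figure D1:**
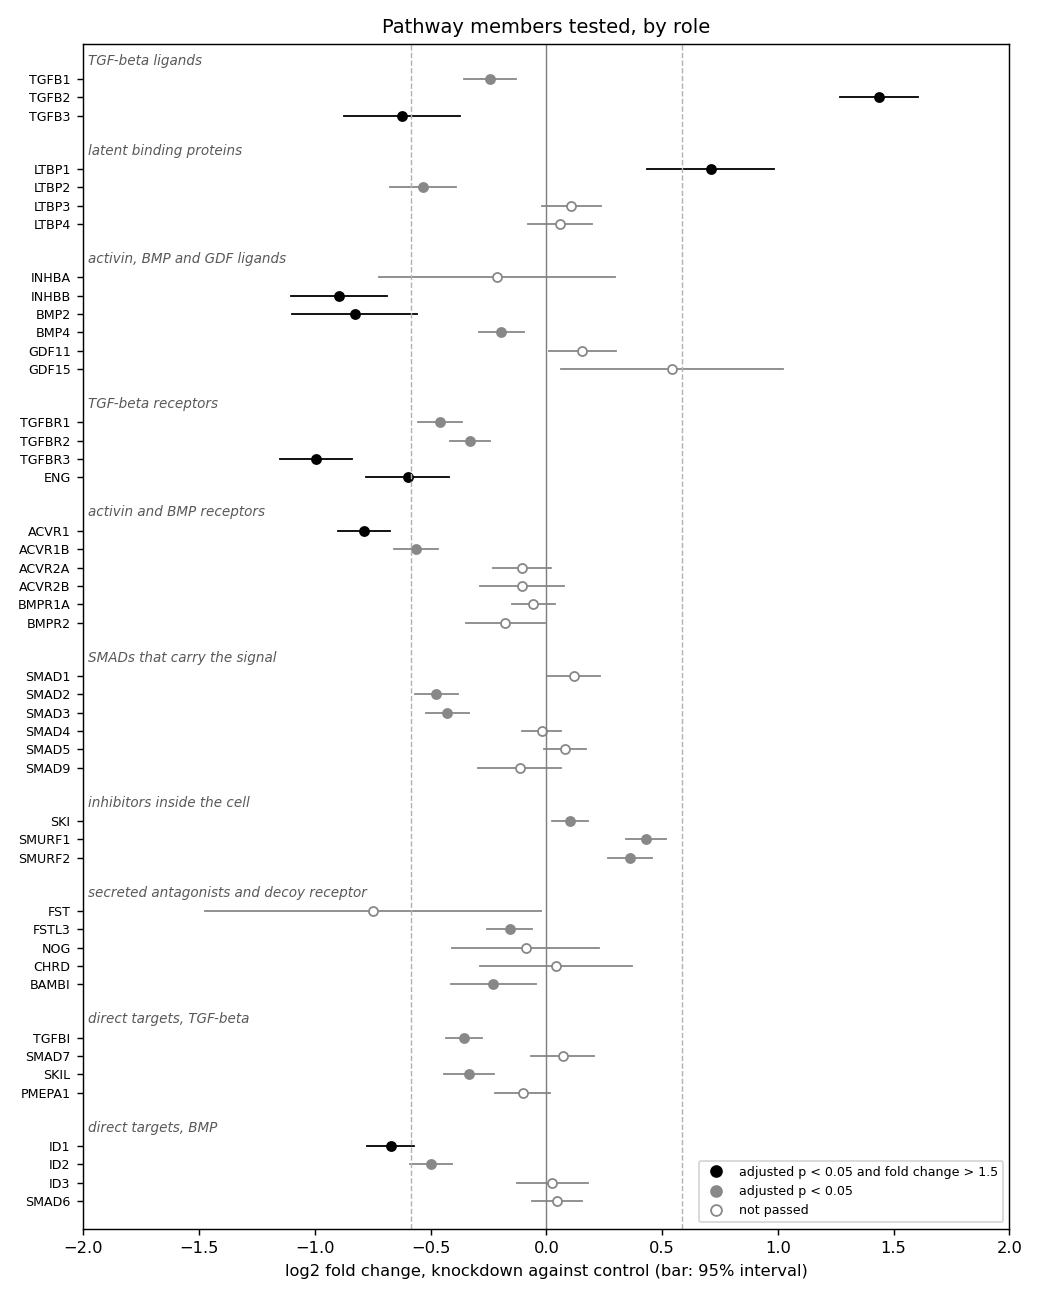
Log2 fold change of knockdown against control (x axis) for the 45 members tested, grouped by role (y axis), with points for the estimates, bars for 95% confidence intervals and dashed lines at a fold change of 1.5. TGFB2 lies far to the right at 1.44, the 4 TGF-beta receptors lie to the left of 0, and black points mark the 9 DE members.

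The 3 TGF-beta ligand genes moved apart. TGFB2, which encodes the isoform best known from heart, eye and craniofacial development, lies at chr1:218345336-218444619 on the plus strand (GRCh38). Its normalized counts were 1063, 1208 and 974 in control libraries 1, 2 and 3 and 3058, 3110 and 2590 in knockdown libraries 1, 2 and 3. The lowest knockdown library was thus 1383 counts above the highest control library. TGFB2 rose 2.71-fold (log2 fold change 1.44, 95% interval 1.27 to 1.61, adjusted p = 1.4e-08), which ranked 45 from the top among the 15155 genes. The log2 fold change lay between 1.37 and 1.52 under every alternative run. Of its annotated exon bases, 22.7% also belong to TGFB2-OT1 on the same strand. Reads there cannot be given to either gene and are not counted, and TGFB2-OT1 had 0 counts in all 6 libraries. The counts of TGFB2 therefore come from the rest of the transcript.

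TGFB1, the isoform most widely expressed in adult tissue, had normalized counts of 2290, 2241 and 1976 in control and 1846, 1849 and 1804 in knockdown libraries. The groups did not overlap, and TGFB1 fell by 0.24 on the log2 scale (SE 0.052, adjusted p = 0.0018). TGFB3 had counts of 176, 180 and 153 in control and 120, 104 and 106 in knockdown libraries. It fell to 64.8% of control (log2 fold change -0.62, 95% interval -0.88 to -0.37, adjusted p = 0.00061). TGFB3 lay close to the fold cutoff and was no longer DE with library size alone (log2 fold change -0.56) or without knockdown library 2 (-0.58).

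To set the 3 ligands side by side, their levels were taken per kilobase of exon, as TPM, in which every library has the same total. In control libraries 1, 2 and 3 TGFB1 was at 92.6, 93.7 and 80.2 TPM, and in the knockdown libraries at 75.0, 75.9 and 74.8 TPM. TGFB2 was at 23.2, 27.3 and 21.3 TPM in control and at 67.0, 68.9 and 57.9 TPM in knockdown libraries. TGFB3 stayed below both, at 3.89 to 4.71 TPM in control and 2.66 to 3.03 TPM in knockdown libraries. With all annotated exon bases as length, TGFB1 was the most abundant of the 3 in every library. Its lead over TGFB2 was 64.9 ± 5.43 TPM in control and 10.6 ± 5.42 TPM in knockdown libraries (SD, n = 3). The length of TGFB2 includes the 22.7% of exon bases shared with TGFB2-OT1, where no reads are counted. The TPM of TGFB2, its share and the sum are thus understated. Whether TGFB1 leads in the knockdown libraries depends on this length. The share of TGFB2 in the sum of the 3 was 20.4% ± 1.21 in control and 45.2% ± 2.15 in knockdown libraries (SD, n = 3), a difference of 24.8 percentage points. The groups did not overlap, and the two-sided exact permutation test gave p = 0.1, the smallest that 3 against 3 libraries allow. The sum itself was 117 ± 10.5 TPM in control and 143 ± 6.32 TPM in knockdown libraries (p = 0.1 in the same exact test).

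**Figure D2:**
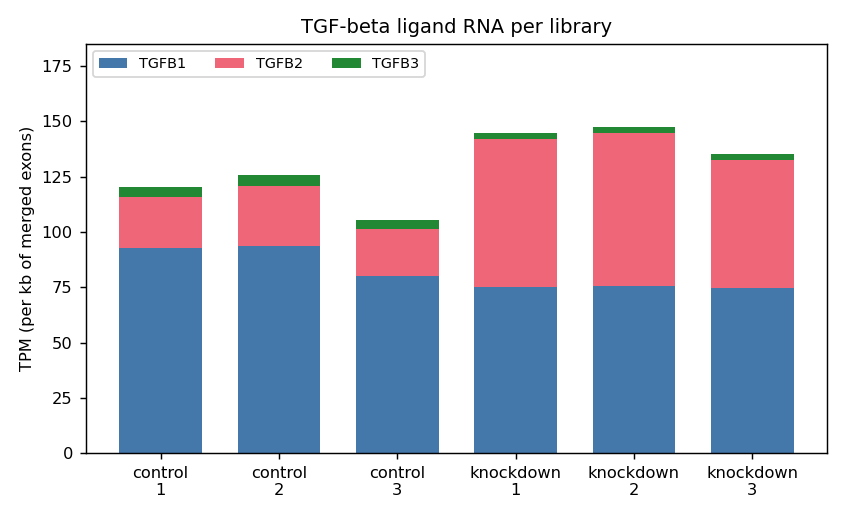
RNA of TGFB1, TGFB2 and TGFB3 in TPM (y axis) in each of the 6 libraries (x axis), stacked. The sum lies between 106 and 126 TPM in control and between 135 and 147 TPM in knockdown libraries, and the TGFB2 segment is the part that is larger in all 3 knockdown libraries.

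The promoter of TGFB2 is shown, from RefSeq (GRCh38.p14, chr1:218345086-218345385, plus strand, 250 bases before to 50 after the start), since its RNA rose most among the members. The capitals mark an E-box, CACGTG, which begins 49 bases before the start. The E-box is held by 7.26% of 35116 promoters of the same length and by 3 of the 45 members with a promoter in the table (TGFB2, BMP4 and SMAD9). The SMAD-binding letters GTCTG, read on the minus strand, share 1 base with this E-box.

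TGFB2 promoter: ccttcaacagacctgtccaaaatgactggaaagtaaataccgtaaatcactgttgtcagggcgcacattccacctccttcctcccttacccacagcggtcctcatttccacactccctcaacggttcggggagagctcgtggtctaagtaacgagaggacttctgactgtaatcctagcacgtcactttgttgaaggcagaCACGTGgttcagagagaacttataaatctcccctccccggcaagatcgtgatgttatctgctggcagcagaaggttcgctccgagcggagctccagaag

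Latent binding proteins tether the ligand complex to the matrix. LTBP1, which binds latent TGF-beta covalently, had normalized counts of 88.0, 112 and 88.1 in control and 148, 166 and 155 in knockdown libraries. All 3 knockdown libraries were above the control libraries, and LTBP1 rose 1.64-fold (log2 fold change 0.71, 95% interval 0.44 to 0.98, adjusted p = 0.00045). LTBP2, the family member that does not bind latent TGF-beta, fell by 0.53 on the log2 scale (adjusted p = 2.1e-05). LTBP3 and LTBP4 did not pass, with log2 fold changes of 0.11 and 0.060 (adjusted p = 0.15 and 0.46). Per kilobase, LTBP1 was the least abundant of these genes, at 1.75 TPM in control and 2.85 TPM in knockdown libraries. LTBP2 was at 10.1 and 6.96 TPM, LTBP3 at 17.25 and 18.7 TPM, and LTBP4 at 17.9 and 18.8 TPM.

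Of the 6 activin, BMP and GDF ligand genes tested none rose and 3 fell with edgeR, so that 50% changed. This was near the 48.3% of all genes tested. The same counts were found with DESeq2, while with edgeR 2 were higher at an unadjusted p under 0.05. INHBB, which encodes the activin beta B subunit, had normalized counts of 270, 265 and 291 in control and 142, 161 and 140 in knockdown libraries. It fell to 53.7% of control (log2 fold change -0.90, 95% interval -1.11 to -0.69, adjusted p = 6.2e-06), with no overlap. BMP2, a BMP ligand that is induced in decidualizing stroma, had counts of 212, 244 and 178 in control and 115, 120 and 121 in knockdown libraries. It fell to 56.3% of control (log2 fold change -0.83, 95% interval -1.10 to -0.56, adjusted p = 0.00011), and the knockdown libraries spanned 6.11 counts and the control libraries 66.2. BMP4, the most abundant ligand gene of the module per kilobase in control cells (89.0 TPM, beside 88.9 TPM for TGFB1, a gap within their spread), fell by 0.19 on the log2 scale (adjusted p = 0.003). INHBA, the activin beta A subunit, was low, with mean counts of 25.7 in control and 21.8 in knockdown libraries (adjusted p = 0.49). The stress-induced ligand GDF15 had a log2 fold change of 0.54 and did not pass (adjusted p = 0.06), nor did GDF11 (0.16, adjusted p = 0.074). GDF15 passed without knockdown library 1, with library size alone and with at least 10 counts in every library, and ranged from 0.33 to 0.67 over the fits that left out 1 library. GDF11 passed with library size alone and without control library 2 (0.23).

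All 4 TGF-beta receptor genes fell, against 25% of all genes tested. TGFBR3 encodes betaglycan, the coreceptor that presents TGF-beta 2 to TGFBR2, which binds this isoform only weakly by itself. Its normalized counts were 896, 1033 and 883 in control and 454, 454 and 505 in knockdown libraries. TGFBR3 fell to 50.2% of control, the lowest log2 fold change of any member tested (-0.99, 95% interval -1.15 to -0.84, adjusted p = 1.7e-07). The coreceptor endoglin, encoded by ENG, had counts of 884, 863 and 694 in control and 553, 520 and 539 in knockdown libraries. Control library 3 was below the other control libraries and still above every knockdown library. ENG fell to 66.0% of control (log2 fold change -0.60, adjusted p = 5.4e-05), but was no longer DE with library size alone (-0.53) or without control library 1, control library 2 or knockdown library 2, and its value ranged from -0.70 to -0.53 over the 6 fits that left out 1 library. The type I receptor gene TGFBR1 and the type II receptor gene TGFBR2 fell by less, to 72.7% and 79.5% of control (log2 fold change -0.46 and -0.33, adjusted p = 2e-06 and 1.6e-05).

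Among the 6 activin and BMP receptor genes tested, 2 type I receptor genes fell and none rose. In this list 33.3% thus changed, against 48.3% of all genes tested. ACVR1 encodes ALK2, a receptor for BMPs that also binds activin, and had normalized counts of 1287, 1308 and 1269 in control and 718, 728 and 800 in knockdown libraries. It fell to 58.0% of control (log2 fold change -0.79, 95% interval -0.90 to -0.67, adjusted p = 6.9e-08), with a gap of 469.6 counts between the groups. ACVR1B, the activin receptor ALK4, fell to 67.7% of control (log2 fold change -0.56, adjusted p = 3.3e-07), just under the fold cutoff. The type II receptor genes ACVR2A, ACVR2B and BMPR2 and the type I receptor gene BMPR1A did not pass, with log2 fold changes from -0.18 to -0.056. BMPR2, whose control library 2 was high, passed with no filter on low counts and without control library 3, and ranged from -0.25 to -0.049 over the fits that left out 1 library. The 95% interval of BMPR1A, -0.15 to 0.037, was the narrowest of these 4 genes.

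Since 1 siRNA was used, RNA changes from the loss of LINC01133 and from other pairing of the same siRNA cannot be told apart in these libraries. The study also measured TGFB2 by qRT-PCR with a second siRNA, which was not analysed here. The 3′ untranslated regions of the members were therefore read for the bases that pair with the siRNA seed, AGAATGG, and for the longer match AGAATGGA. The shorter match occurred in 17.1% of the 12536 genes tested that had such a region, in 13.4% of those that rose and in 24.3% of those that fell. Over all genes, those that fell also had longer regions, with a median of 1675 bases against 1358 for those that rose. The members went the other way, with medians of 1677 bases for those that fell, 3257 for those that rose and 3548 for those that did not pass. Of the 45 members tested 11 (24.4%) held the shorter match. These were TGFB3, LTBP2, INHBB, TGFBR1, ENG, ACVR1 and SMAD2 among the 20 that fell, none of the 5 that rose, and INHBA, GDF11, ACVR2B and SMAD9 among the 20 that did not pass. TGFB2, TGFBR3, BMP2 and ID1 held none. The part of these matches in the results was not tested. The longer match was held by 5.78% of all these genes, 3.69% of those that rose and 9.88% of those that fell, and by 4 members (8.89%). These 4 are shown with 30 bases of the transcript's strand, the match in capitals (GRCh38). They lie in the 3′ untranslated regions of GDF11 (chr12:55753152-55753181, plus strand), TGFBR1 (chr9:99153601-99153630, plus strand), ENG (chr9:127815564-127815593, minus strand) and ACVR1 (chr2:157737431-157737460, minus strand).

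GDF11 site: ccagcctccacAGAATGGAagatctaaagg

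TGFBR1 site: actacagtagaAGAATGGAagcagtgcaaa

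ENG site: ccactcgacccAGAATGGAgcctgctctcc

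ACVR1 site: gactggttgtcAGAATGGAatccatctgtc

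The 3 receptor genes with such a site fell, while GDF11 had normalized counts of 754 ± 76.2 in control and 840 ± 25.9 in knockdown libraries. The receptor genes TGFBR2, TGFBR3 and ACVR1B, with 0 matches of either length, also fell. Of all 724 genes tested with the longer match, 356 fell and 112 rose.

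Of the 6 genes of the SMADs that carry the signal, the 2 of the TGF-beta and activin branch fell. In this list 33.3% thus changed, against 48.3% of all genes tested. SMAD2 had normalized counts of 4874, 5354 and 4962 in control and 3611, 3586 and 3729 in knockdown libraries (log2 fold change -0.48, adjusted p = 1.2e-06). SMAD3 had counts of 3773, 4031 and 4078 in control and 2913, 2848 and 3078 in knockdown libraries (log2 fold change -0.43, adjusted p = 4e-06). Both were thus at 71.9% and 74.4% of control, under the fold cutoff, with no overlap between the groups. The BMP branch did not pass, with log2 fold changes of 0.12 for SMAD1 (adjusted p = 0.079), 0.081 for SMAD5 (adjusted p = 0.12) and -0.12 for SMAD9 (adjusted p = 0.27). SMAD4, the shared partner, was at 3049 ± 89.3 in control and 3009 ± 71.8 in knockdown libraries (SD, n = 3), with a 95% interval of -0.10 to 0.065.

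SMURF1, SMURF2 and SKI, which encode inhibitors inside the cell, rose, as did 23.3% of all genes tested. Other such inhibitors, SKIL, SMAD6, SMAD7 and PMEPA1, are also direct targets and are described with these, where SKIL fell and the other 3 did not pass. SMURF1 and SMURF2 encode ubiquitin ligases that mark SMADs and receptors for breakdown. Other ubiquitin ligase genes, from the further lists, did not rise. WWP1 (log2 fold change -0.51), NEDD4L (-0.24) and TRIM33 (-0.65) fell, and ITCH (-0.058) did not pass. SMURF1 had normalized counts of 1550, 1623 and 1597 in control and 2123, 2106 and 2201 in knockdown libraries (log2 fold change 0.43, adjusted p = 1.8e-06). SMURF2 had counts of 3596, 3766 and 3572 in control and 4724, 4907 and 4420 in knockdown libraries (log2 fold change 0.36, adjusted p = 1.8e-05). Neither overlapped between the groups. SKI, a repressor of SMAD complexes, rose by only 0.10 on the log2 scale (adjusted p = 0.033), and this call was lost with DESeq2, with no filter on low counts, and without control library 1 or any 1 of the knockdown libraries. Without 1 of these libraries its log2 fold change stayed between 0.082 and 0.11.

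**Figure D3:**
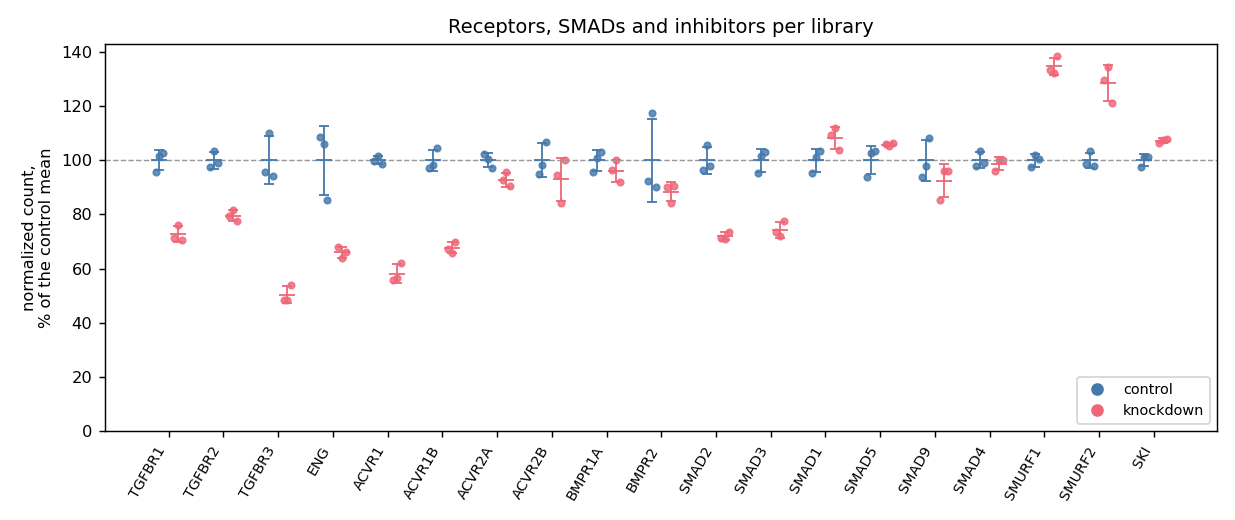
Normalized counts as a percentage of the control mean (y axis, from 0) for the receptor, SMAD and inhibitor genes (x axis), with 1 point per library (blue control, red knockdown) and bars for the mean ± SD (n = 3). The knockdown means of TGFBR3 and ACVR1 lie at 50.2% and 58.0%, those of SMURF1 and SMURF2 at 134.8% and 128.6%, and the libraries of BMPR1A overlap.

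Of the 5 secreted antagonists and decoy receptor tested, 2 fell and 3 did not pass. In this list 40% thus changed, against 48.3% of all genes tested. FSTL3, an activin-binding protein of the follistatin family and the fourth most abundant member per kilobase (227 TPM in control and 204 TPM in knockdown libraries), fell by 0.16 on the log2 scale (adjusted p = 0.0097). This call was lost with library size alone and without knockdown library 3. BAMBI, a pseudoreceptor without a kinase domain, fell by 0.23 (adjusted p = 0.039) although its groups overlapped, and the call was lost with library size alone and without control library 1 or any 1 of the knockdown libraries. The follistatin gene FST was low, with mean normalized counts of 16.1 in control and 9.28 in knockdown libraries, and did not pass (adjusted p = 0.081), except without control library 1. The BMP antagonist genes NOG and CHRD, at mean counts of 74.7 to 83.1 in both groups, had log2 fold changes of -0.090 and 0.041 (adjusted p = 0.64 and 0.85).

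None of the 8 direct target genes rose in the knockdown libraries. Of the 4 TGF-beta targets, those of the branch of TGFB2, 2 fell and 2 did not pass, while TGFB2 was 2.71-fold higher. Of the 4 BMP targets 2 fell and 2 did not pass. Of all 8 together 4 fell and 4 did not pass the test, so that 50% changed. This was near the 48.3% of all genes tested, of which 23.3% rose and 25% fell. With edgeR at an unadjusted p under 0.05, 0 were likewise higher. Their median log2 fold change was -0.22. The same 0 higher and 4 lower were counted under every alternative tool, scaling, filter, strand column and left-out library for which changed genes were counted.

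The TGF-beta targets are read first. TGFBI, an extracellular matrix protein named for its induction by TGF-beta, was the most abundant member per kilobase, at 605 TPM in control and 474 TPM in knockdown libraries. Its normalized counts were 35189, 34856 and 34792 in control and 27630, 28152 and 26174 in knockdown libraries. TGFBI fell to 78.2% of control (log2 fold change -0.36, 95% interval -0.43 to -0.28, adjusted p = 3.9e-06). SKIL, a SMAD corepressor that TGF-beta induces in a feedback loop, had counts of 2324, 2613 and 2299 in control and 1903, 1885 and 1948 in knockdown libraries. It fell by 0.33 on the log2 scale (adjusted p = 0.00011), and the groups did not overlap. SMAD7, the inhibitory SMAD that TGF-beta induces, had counts of 592, 567 and 528 in control and 608, 583 and 579 in knockdown libraries. The groups overlapped, and the log2 fold change was 0.070 with a 95% interval of -0.065 to 0.21 (adjusted p = 0.38). PMEPA1, a membrane protein that holds back SMAD2 and SMAD3, had counts of 822, 812 and 835 in control and 727, 804 and 772 in knockdown libraries. Its 95% interval was -0.22 to 0.014 (log2 fold change -0.10, adjusted p = 0.13), and all 3 knockdown libraries were below the control libraries.

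The BMP targets parted by gene. ID1, one of the inhibitors of DNA binding that restrain helix-loop-helix factors, had normalized counts of 3363, 3018 and 3030 in control and 1911, 2006 and 1991 in knockdown libraries. It fell to 62.7% of control, the only DE target member (log2 fold change -0.67, 95% interval -0.78 to -0.57, adjusted p = 1.4e-07). ID2 had counts of 5119, 4988 and 5122 in control and 3400, 3609 and 3775 in knockdown libraries. It fell to 70.8% of control (log2 fold change -0.50, adjusted p = 7.3e-07). Gaps of 1012 counts for ID1 and 1213 for ID2 separated the groups. ID3 had counts of 916, 776 and 745 in control and 810, 832 and 845 in knockdown libraries, which overlapped. Its 95% interval was -0.13 to 0.18 (adjusted p = 0.79). SMAD6, the inhibitory SMAD of the BMP branch, had counts of 923, 857 and 879 in control and 890, 922 and 938 in knockdown libraries, and its 95% interval was -0.064 to 0.16 (adjusted p = 0.48). ID3 and SMAD6 thus did not pass, while ID1 and ID2 fell.

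**Figure D4:**
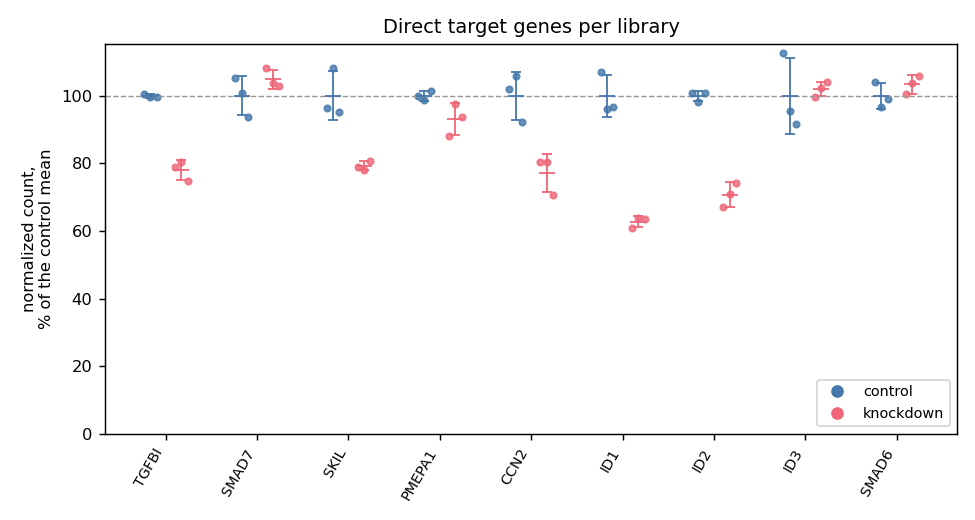
Normalized counts as a percentage of the control mean (y axis, from 0) for the 8 direct target genes and for CCN2 of the wider target list (x axis), with 1 point per library (blue control, red knockdown) and bars for the mean ± SD (n = 3). The knockdown libraries of TGFBI, SKIL, CCN2, ID1 and ID2 lie below the control libraries, and those of SMAD7, ID3 and SMAD6 overlap with them.

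The promoters of the members were searched on both strands for SMAD-binding letters. The palindromic SMAD element GTCTAGAC occurred in 0.202% of the 35116 promoters and in 1 of the 45 members with a promoter, SMAD6, 12 bases before the start. This promoter is shown because it belongs to a target gene that did not pass the test, and the capitals mark the element (RefSeq, GRCh38.p14, chr15:66701986-66702285, plus strand). The shorter element GTCTG, which the palindrome does not contain, occurred in 45.3% of all promoters and in 20 members, and the GC-rich element GGCGCC in 19.2% and in 13 members. The cyclic AMP response element TGACGTCA was in 1.85% of all promoters and in 1 member, SKIL, 54 bases before the start.

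SMAD6 promoter: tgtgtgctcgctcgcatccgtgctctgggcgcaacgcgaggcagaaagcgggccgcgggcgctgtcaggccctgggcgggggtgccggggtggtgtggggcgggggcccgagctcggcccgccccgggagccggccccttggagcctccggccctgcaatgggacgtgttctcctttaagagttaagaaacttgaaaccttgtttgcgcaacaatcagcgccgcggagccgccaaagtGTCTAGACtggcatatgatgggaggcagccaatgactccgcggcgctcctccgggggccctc

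A further 128 genes of the pathway were grouped in 7 lists, of which 88 genes were tested. Of these 21 rose, 37 fell and 30 did not pass, and their median was -0.11 on the log2 scale. Thus 65.9% changed and 21.6% were DE, against 48.3% and 11.7% of all genes tested. The wider list of TGF-beta and activin targets, with 35 genes tested, held changes in both directions. In it 10 rose, 14 fell and 11 did not pass, and 24 (68.6%) changed against 48.3% of all genes. CCN2, connective tissue growth factor, was at 3373 ± 238 in control and 2602 ± 191 in knockdown libraries and fell by 0.37 on the log2 scale (adjusted p = 0.00017). Of the 7 DE genes in this list (20% of those tested) 6 rose and 1 fell. Among all 15155 genes tested 11.7% were DE, with 803 higher and 975 lower. TGM2, tissue transglutaminase, fell from 99.9 to 30.4 (log2 fold change -1.71, adjusted p = 4.4e-06). CNN1, the smooth muscle protein calponin, rose from 78.8 to 203 (log2 fold change 1.37, adjusted p = 1.4e-06), beside a summed count of 4 smooth muscle markers, CNN1 included, of 173-189 in control and 290-365 in knockdown libraries, in which MYH11 was near 0. CDKN1A, the cell cycle inhibitor p21, rose 1.90-fold (log2 fold change 0.93, adjusted p = 9e-09). NEDD9, a scaffold protein of focal adhesions, was low, at 20.1 and 34.5, and rose by 0.77 (adjusted p = 0.0098), a call that was lost with DESeq2 (adjusted p = 0.084).

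The wider list of BMP targets had 9 genes tested, of which 2 rose, 2 fell and 5 did not pass. Thus 44.4% changed, against 48.3% of all genes tested. ID4, a relative of ID1 to ID3, rose from a mean normalized count of 3063 to 4813 (log2 fold change 0.65, adjusted p = 2.5e-08), opposite in direction to ID1 and ID2. The transcription factor gene DLX2 rose by 0.67 (adjusted p = 0.00068). ATOH8, a helix-loop-helix factor gene, fell by 0.64 on the log2 scale (adjusted p = 0.00039), and was no longer DE with library size alone or without control library 3.

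In the list on release of latent TGF-beta 13 genes were tested, of which 3 rose, 7 fell and 3 did not pass. Their median was -0.30 on the log2 scale. Thus 76.9% changed, against 48.3% of all genes tested, of which 23.3% rose and 25% fell. PLAT and PLAU encode the tissue and urokinase plasminogen activators. PLAT had normalized counts of 1010, 1249 and 802 in control and 342, 324 and 294 in knockdown libraries (log2 fold change -1.66, adjusted p = 3.6e-07). PLAU fell from 405 to 206 (log2 fold change -0.97, adjusted p = 1.2e-06). ITGAV, ITGB5 and ITGB8, which encode integrin subunits, and THBS1, a thrombospondin that can activate TGF-beta, were also among the 7 that fell, by 0.30 to 0.47 on the log2 scale. FURIN, the convertase that cleaves the propeptide, was among the 3 that rose, by 0.39 (adjusted p = 6.2e-06). The other 2 that rose were the protease genes MMP14 (log2 fold change 0.13, adjusted p = 0.0074) and BMP1 (0.18, adjusted p = 0.0052). The integrin genes ITGB1 and ITGB3 did not pass, with log2 fold changes of 0.046 and 0.085.

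The remaining lists held ligands, coreceptors, antagonists and cofactors. Only 3 of 23 other ligand genes had enough counts to be tested, of which AMH, anti-Müllerian hormone, rose from 146 to 312 (log2 fold change 1.08, adjusted p = 9.7e-05). GDF6 rose from 49.2 to 76.4 (adjusted p = 0.0054) and was no longer DE without control library 1. RGMB, a coreceptor for BMPs, was the DE gene among 3 coreceptors and receptors tested, and rose from 2188 to 3858 (log2 fold change 0.82, adjusted p = 6.9e-08). Of 6 other antagonist genes 4 fell and none rose, with edgeR at an unadjusted or adjusted p and with DESeq2. By adjusted p in edgeR 66.7% thus changed, against 48.3% of all genes tested. Those that fell included the BMP-binding proteins BMPER (log2 fold change -0.68, adjusted p = 4.4e-05) and NBL1 (-0.64, adjusted p = 4.3e-08). Of 19 cofactor genes 3 rose and 9 fell, so that 63.2% changed, against 48.3% of all genes tested. DAB2, an adaptor that links receptors to SMADs, fell from 25904 to 15752 (log2 fold change -0.72, adjusted p = 1.8e-06), and TRIM33, a ubiquitin ligase of SMAD4 and a partner of SMAD2 and SMAD3, from 4614 to 2932 (-0.65, adjusted p = 1.4e-07).

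**Figure D5:**
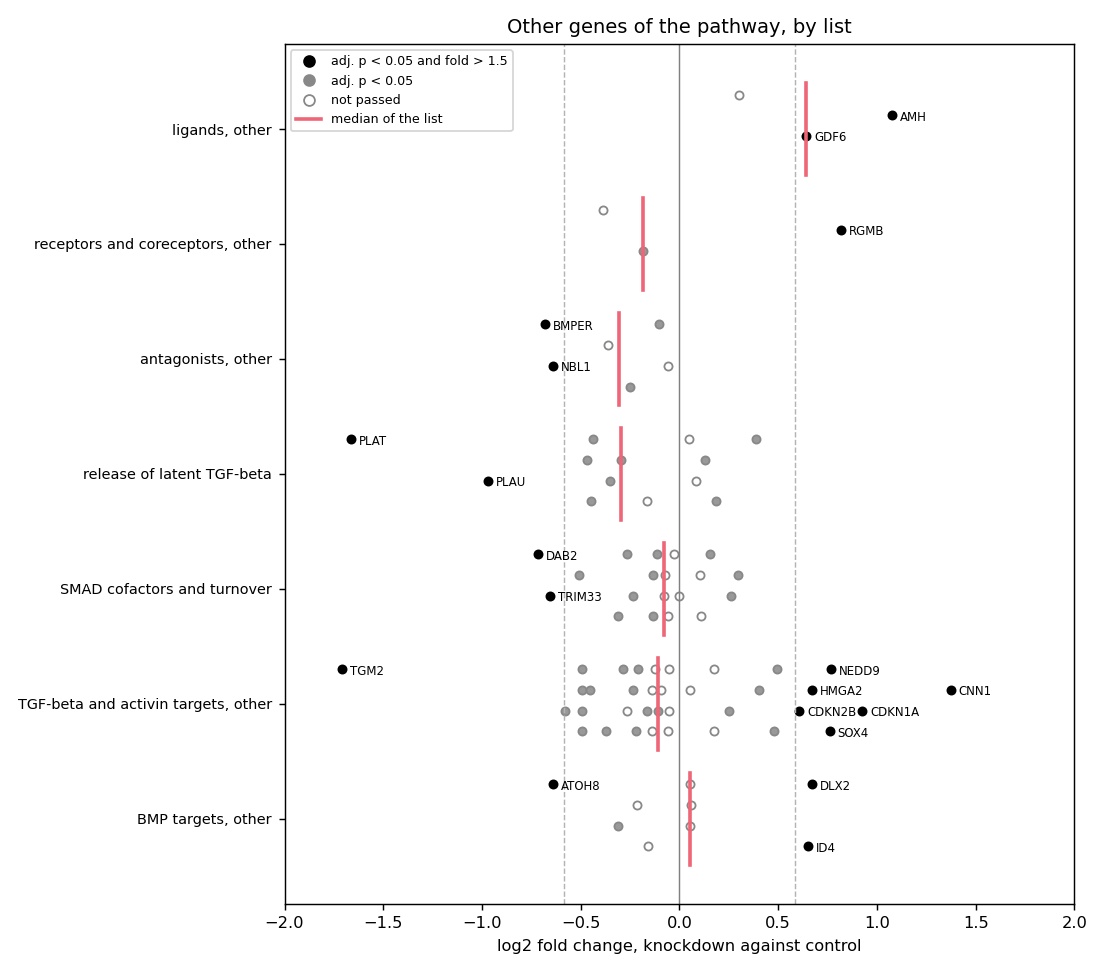
Log2 fold change of knockdown against control (x axis) for the tested genes of the 7 further lists (y axis), 1 point per gene (black DE, grey changed, open not passed), with a red line at the median of each list and dashed lines at a fold change of 1.5. The targets of TGF-beta and activin spread from -1.71 to 1.37 around a median of -0.11, and the antagonists BMPER and NBL1 lie left of the dashed line.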

How the data were processed

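The 6 libraries of 12Z cells (3 control, 3 LINC01133 knockdown) were deposited as read-pair counts per gene, without normalization. The authors aligned reads with STAR 2.7.6a to GRCh38.p13 with GENCODE v36, used SAMtools 1.10 (versions from the submitters' processing notes), and counted uniquely mapped reads. Column 4, which held at least 93.9% of stranded counts, was used, as the paper names no strand column. Rows without a gene (ambiguous 3.88 to 4.23%, no feature 4.38 to 5.22% of uniquely mapped reads) were left out. Symbols, lengths and 3′ untranslated regions of Ensembl canonical transcripts came from GENCODE v44 (60463 of 60660 IDs matched), promoters from RefSeq, and the siRNA sequence from the study's supplement.

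Counts passing filterByExpr (minimum count 10) were tested with edgeR 4.0.16 in R 4.3.3 (TMM factors 0.968 to 1.03, condition as the only term), adjusted over all 15155 genes. The tests were tried on simulated data. The members, lists and alternatives were chosen with earlier results of these data known. Per-library values are given for DE members, TGF-beta ligands and direct targets, and some others. From each further list, up to 4 DE genes with the largest log2 fold changes are named, with CCN2 and 1 gene not reported here, plus integrins, THBS1, FURIN, MMP14 and BMP1, which were named after their values were seen. Alternatives covered DESeq2 1.42.0, other scalings and filters, the unstranded column, a replicate block, glmTreat and leaving out each library.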

Additional observations from a re-analysis of the deposited data

How the results depend on the processing

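Leaving out 1 library gave 22 to 26 changed members and 7 to 10 DE members, against 25 and 9. Of 961 values of single genes under alternatives other than glmTreat, 14 lost the call of changed (adjusted p under 0.05), 12 gained it and 9 changed sign. Genes that crossed only the fold cutoff of DE are not in these numbers. These genes were the tested members, CCN2 and all listed genes, cell type markers included, that were DE in the main fit. Genes taken because they were DE are less apt to lose a call, so these numbers favour stability. With library size alone 10 members rose instead of 5, as LTBP3, GDF11, GDF15, SMAD1 and SMAD5 passed, and BMPR1A and SMAD4 turned to 0.0068 and 0.044 on the log2 scale, neither past the test. With glmTreat 4 members passed, 1 higher and 3 lower. Over the fits that left out 1 library the log2 fold change crossed 0 for LTBP4 (-0.016 to 0.11), SMAD4 (-0.035 to 0.0048), ID3 (-0.033 to 0.12) and CHRD (-0.031 to 0.17), of which the values past 0 did not pass the test. The share of TGFB2 among the TGF-beta ligands differed by 23.5 to 26.8 percentage points, the highest with only exon bases that TGFB2 shares with no gene, an alternative chosen after seeing the data. Libraries with the same number did not deviate together (correlation -0.015, 0.005 and 0.057). With the replicate number as a replicate block 25 members changed, 9 were DE, and LINC01133 was at -2.63, so no paired value moved a count. Genes near the filter, such as FST, INHBA and GDF15, have the least precise values, and RNA gives no level of protein or of active ligand. The study calls the libraries biological replicates, but neither it nor the labels say whether they came from separate cultures, so p-values measure the spread between these libraries.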
